A study of Mus musculus with 8 samples.

Results

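The semaphorins and their receptors were measured on 8 Affymetrix arrays of newborn mouse striatum. The family was taken as every probe set (a group of short probes read as 1 value) whose single platform gene symbol begins with Sema3, Sema4, Sema5, Sema6, Sema7 or Plxn, or is Nrp1 or Nrp2. That gave 79 of 45037 probe sets and 32 of 18193 genes: 7 class 3 semaphorins, 13 semaphorins of classes 4 to 7, 9 plexins, 2 neuropilins and Plxna4os1, a transcript named as antisense to Plxna4. All mice were of strain BALB/c at postnatal day 0, each array holding total RNA of 1 mouse, from a punch through the centre of the striatum. There were 3 wild type mice, 1 Ctip2 heterozygote and 4 Ctip2 null mutants, and the series compares null with wild type tissue. Ctip2, whose current symbol is Bcl11b, is a zinc finger protein that acts as a transcription factor in medium spiny neurons, which project out of the striatum and make up most of its neurons. The sources used here do not give which part of the gene the null allele lacks.

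Semaphorins are secreted or membrane-bound cues that steer growing axons and migrating neurons, mostly by repulsion. Class 3 semaphorins are secreted, and most of them act through a neuropilin, which binds the ligand, paired with a plexin, which carries the signal into the cell by acting on small GTPases. Sema3e is the exception and binds Plxnd1 directly, and the membrane-bound classes bind plexins directly too, with Sema7a as the known ligand of Plxnc1. In the striatum, Plxnd1 is known from medium spiny neurons of the direct pathway, where Sema3e supplied by thalamic axons limits synapse formation. Plxnd1 and Nrp1 are also expressed by endothelial cells, in which they guide vessel growth.

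Across the family, 6 probe sets were higher and 1 was lower in null striatum at an adjusted p under 0.05 (limma, Benjamini-Hochberg over all probe sets), and 72 did not pass. The 7 belong to 4 genes. Nrp1 (3 of its 4 probe sets), Plxnc1 (2 of 6) and Sema3c (1 of 2) rose, and Plxnd1 (its only probe set) fell. Of all probe sets on the array, 1.87% were called higher and 0.453% lower. No probe set of the semaphorins of classes 4 to 7 passed, although 8 of those 30 were higher and 1 lower at an unadjusted p under 0.05. Over the whole family 20 were higher and 3 lower at that level, where all probe sets gave 10.9% and 8.74%. The count of rises was 10 without null 4, and lay between 5 and 7 with any other single array left out. Over all probe sets the count higher, 840 as reported, moved too, to 1713 without null 4 and to between 210 and 1733 without another array.

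Start-site sequence is shown for Sema3c and Plxnc1, which rose together with Nrp1, as the stretch of the 250 bases before the start in RefSeq (build GRCm38.p6) that lies outside the gene's annotated span. For Sema3c the whole window qualifies, at chr5:17574566-17574815 on the plus strand. For Plxnc1 the outer 80 bases do, at chr10:94945016-94945095 on the minus strand. The windows listed for Nrp1 and Plxnd1 lie inside the annotated span of those genes and are not shown. Capitals mark the GC box GGGCGG, a binding sequence of Sp1-type factors, on either strand.
Sema3c: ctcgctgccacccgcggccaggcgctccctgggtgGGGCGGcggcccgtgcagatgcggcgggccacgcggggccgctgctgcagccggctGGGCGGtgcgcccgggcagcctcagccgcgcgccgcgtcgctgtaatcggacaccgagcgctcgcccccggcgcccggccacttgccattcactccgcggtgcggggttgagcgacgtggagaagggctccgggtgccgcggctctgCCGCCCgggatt
Plxnc1: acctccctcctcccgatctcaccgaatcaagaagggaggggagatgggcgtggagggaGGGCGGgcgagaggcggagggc

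The Sema3c window is 78.4% G or C with 39 CpG dinucleotides, and the full windows of Plxnc1, Nrp1 and Plxnd1 are 68.8%, 64.4% and 64.8% G or C with 22, 11 and 16. The median over 32851 windows of all genes is 52.4% with 6 CpG. RefSeq windows were found for 26 of the 32 genes, 37 windows in all, and their median is 64.0% with 13 CpG. The GC box occurs in 27 of these 37 windows and in 32.7% of all windows. Both strands were also searched for TGACCA, the letters described for the paralogue BCL11A, and for TGACCT, the half-site of nuclear receptors such as the COUP transcription factors, after which Ctip2 was named. TGACCA occurs in 4 of the 37 windows (11.4% of all windows) and in none of the 4 genes that changed. TGACCT occurs in 7 of them (14.02% of all windows), Nrp1, which rose, and Plxnd1, which fell, among them. TATAAA, the core promoter element bound by TBP, occurs in 0 of the 37 windows and 12.4% of all windows. These matches are letters in a window, not measured sites.

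Nrp1 rose on 3 of its 4 probe sets. Nrp1 encodes neuropilin 1, the receptor subunit that binds Sema3a and also a co-receptor for vascular endothelial growth factor. On probe set 1448943_at, wild type 1 to 3 read 5.87, 5.48 and 5.08 on the log2 scale, the heterozygote 6.86, and null 1 to 4 read 7.84, 8.02, 8.31 and 7.70. The lowest null array thus stood well above the highest wild type array, with the heterozygote between the groups. Wild type mice averaged 5.48 ± 0.39 (SD, n = 3) and null mice 7.97 ± 0.26 (SD, n = 4), a difference of 2.49 (95% interval 2.03 to 2.95, 5.62-fold higher, limma adjusted p = 7.96e-04).

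The second Nrp1 probe set, 1448944_at, gave 5.96, 5.99 and 5.96 in wild type, 6.24 in the heterozygote and 7.41, 7.82, 7.84 and 7.33 in null striatum, 3.10-fold higher (limma adjusted p = 0.0014). On it the wild type arrays were nearly identical and the heterozygote sat close to them. The brightest, 1418084_at, gave 5.99, 5.71 and 6.31 in wild type, 6.67 in the heterozygote and 7.84, 8.32, 8.68 and 7.44 in null striatum, 4.19-fold higher (limma adjusted p = 0.0067). Groups did not overlap on any of these 3 probe sets. The fourth, 1457198_at, showed no such separation: it read 5.70, 6.75 and 6.19 in wild type and 6.31, 5.93, 5.997 and 6.34 in null striatum, a difference of -0.07 with a 95% interval of -0.58 to 0.45 (limma adjusted p = 0.867). The same gene symbol therefore covers 3 probe sets that rose and 1 on which a rise of the size seen on the others lies outside the interval. Without wild type 1 and null 2 the adjusted p of 1418084_at was 0.0552 (difference 1.98), while the other 2 that rose passed under every alternative run for them.

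Nrp2, the neuropilin that binds Sema3f and Sema3c, did not pass on any of its 4 probe sets. The brightest, 1426528_at, read 7.26, 7.59 and 7.35 in wild type, 7.19 in the heterozygote and 7.39, 7.49, 7.76 and 7.59 in null striatum, a difference of 0.16 (95% interval -0.15 to 0.47, limma adjusted p = 0.500). The groups overlapped. The widest difference among the 4 was on 1435349_at, with 0.57 (95% interval 0.11 to 1.04, limma adjusted p = 0.184). The upper ends of both intervals are below the lower end of the Nrp1 interval on 1448943_at, though the difference between the 2 genes was not tested. On Nrp1 1457198_at, which did not rise, the interval of -0.58 to 0.45 overlaps both.

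**Figure D1:**
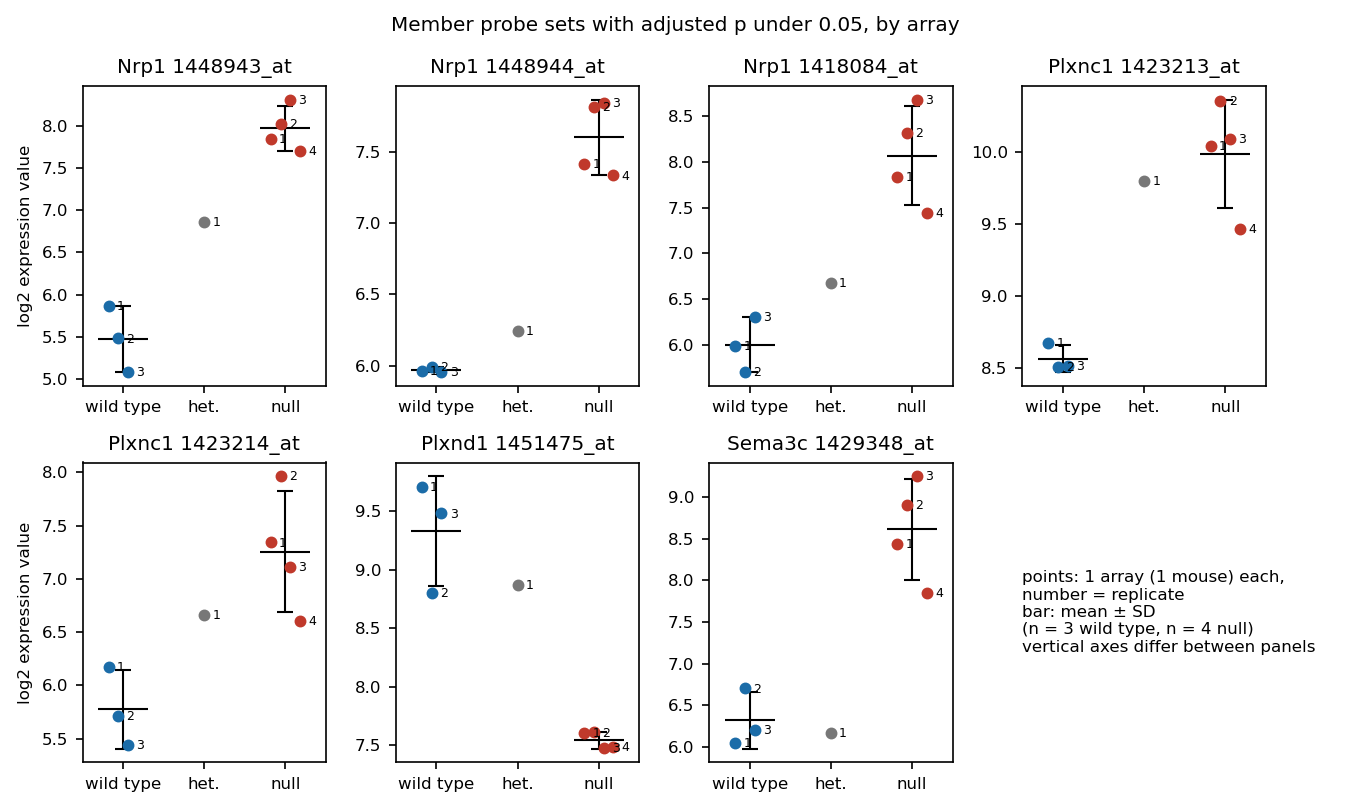
Log2 expression value on each array for the 7 probe sets of the family with an adjusted p under 0.05, 1 panel each. Points are single mice, numbered by replicate, in wild type (n = 3), heterozygote (n = 1) and null (n = 4) striatum, and bars give the mean ± SD. Wild type and null points do not overlap in any panel, Plxnd1 is the only panel with null points below, and null 4 is the lowest null point in the other 6.

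Plxnd1 fell in all null mice. It encodes the plexin that receives Sema3e and, with a neuropilin, Sema3c. Its single probe set, 1451475_at, read 9.71, 8.80 and 9.48 in wild type, 8.87 in the heterozygote and 7.60, 7.61, 7.47 and 7.49 in null striatum. The null arrays were nearly identical to each other and all below the lowest wild type array, and the heterozygote was within the wild type range. The mean went from 9.33 ± 0.47 (SD, n = 3) to 7.54 ± 0.07 (SD, n = 4), a difference of -1.79 (95% interval -2.22 to -1.35, 3.45-fold lower, limma adjusted p = 0.0027). Its adjusted p was at most 0.0276 over the alternatives. No second probe set was available to compare it with.

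Some markers of medium spiny neurons were lower too. Of 14 such genes measured, 5 fell, 0 rose and 9 did not pass, against 0.676% lower and 2.38% higher among all genes with 1 probe set each. The 5 are Ppp1r1b, Drd1, Pde10a, Gnal and Gpr6. Of the 9 that did not pass, 5 had a positive difference, namely Foxp2 (0.63), Ebf1 (0.51), Adcy5 (0.30), Penk (0.21) and Tac1 (0.14), and on Foxp2 and Ebf1 every null array was above every wild type array. The mean log2 level of the 14 ranged from 9.28 to 9.62 in wild type and from 8.94 to 9.14 in null arrays. In that mean every null array was below every wild type array. The part of these neurons in the Plxnd1 value was not tested. Drd1, the dopamine receptor of direct pathway neurons, differed by -0.93, while Tac1, a peptide gene of the same neurons, did not pass, and Pde10a, a phosphodiesterase of all medium spiny neurons, by -1.04. In tissue punches, fewer cells of a type and less RNA per cell cannot be told apart. Of 14 endothelial genes 0 were called, their median difference was 0.03, and their mean level overlapped between wild type (6.53 to 6.75) and null arrays (6.52 to 6.86).

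Plxnc1 rose on 2 probe sets and stood higher without passing on 2 more. It encodes a receptor of Sema7a. The brightest, 1423213_at, read 8.68, 8.51 and 8.52 in wild type, 9.80 in the heterozygote and 10.05, 10.36, 10.09 and 9.47 in null striatum, 2.68-fold higher (difference 1.42, 95% interval 0.99 to 1.85, limma adjusted p = 0.0076). Here the heterozygote stood among the null arrays, unlike on Nrp1 1448944_at or Sema3c. On 1423214_at the values were 6.17, 5.71 and 5.44 in wild type, 6.66 in the heterozygote and 7.34, 7.97, 7.11 and 6.60 in null striatum, 2.79-fold higher (limma adjusted p = 0.0323).

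With the heterozygote counted among the controls, neither Plxnc1 probe set passed (limma adjusted p = 0.190 and 0.158). The second also failed to pass when any 1 of these arrays was left out: wild type 2 (0.126), wild type 3 (0.142), null 1 (0.0858), null 2 (0.0612) or null 3 (0.0588), each a limma adjusted p, and with arrays centred on their median (0.0654) or the spread of each array as a covariate (0.219).

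The next 2 Plxnc1 probe sets gave like differences with more spread. On 1450905_at wild type read 6.29, 6.07 and 5.53, the heterozygote 7.73 and null 7.40, 7.95, 7.998 and 6.49, a difference of 1.49 (limma adjusted p = 0.0570). On 1450906_at wild type read 7.29, 7.99 and 7.05, the heterozygote 8.88 and null 8.52, 9.47, 9.06 and 7.88, a difference of 1.29 (limma adjusted p = 0.0992). Null 4 is the array that came closest to wild type on both, and without it the adjusted p was 0.0059 and 0.0223. The last 2, 1443433_at and 1443434_s_at, had wild type means of 4.06 and 5.66, below the array medians, and differed by -0.12 and -0.05. Probe sets that rose had wild type means below the array medians too. These were Plxnc1 1423214_at (5.77) and Nrp1 1448943_at (5.48), 1448944_at (5.97) and 1418084_at (6.002). The remaining probe sets that rose were Plxnc1 1423213_at, at 8.57, and Sema3c 1429348_at, at 6.32, within the range of the array medians.

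Of the A plexins, the usual partners of neuropilins for class 3 semaphorins, Plxna1 came closest to passing. Its brighter probe set, 1428623_at, read 7.34, 7.28 and 7.63 in wild type, 7.97 in the heterozygote and 8.21, 8.74, 8.67 and 7.83 in null striatum. All null arrays were above all wild type arrays, by 0.95 on average (95% interval 0.46 to 1.44, limma adjusted p = 0.0571). With p values adjusted over 1 probe set per gene the value was 0.0452, and without null 4 it was 0.0126. The dimmer probe set of Plxna1 differed by -0.11.

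Plxna3 showed the same arrangement on 1420996_at, with 7.75, 7.81 and 8.07 in wild type, 8.87 in the heterozygote and 8.45, 8.83, 9.21 and 8.28 in null striatum (difference 0.81, limma adjusted p = 0.0856). Its second probe set differed by 0.12 (95% interval -0.15 to 0.39). Plxna2, a receptor for Sema6a and Sema5a as well as class 3 signals, read 10.65, 9.76 and 10.12 in wild type and 10.63, 10.91, 10.46 and 10.16 in null striatum, with overlap and a difference of 0.36 (limma adjusted p = 0.376). Plxna4, the main Sema3a signal transducer with Nrp1, differed by 0.21 (95% interval -0.06 to 0.48, limma adjusted p = 0.335).

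The B plexins, among them receptors of class 4 semaphorins, did not pass. Plxnb1, the Sema4d receptor, differed by 0.22 on its brighter probe set, where null arrays (8.54 to 8.91) lay just above wild type arrays (8.37 to 8.50), and by 0.70 on the other (95% interval 0.18 to 1.22, limma adjusted p = 0.157). Plxnb2 differed by 0.47 (limma adjusted p = 0.320) and Plxnb3, an oligodendrocyte-enriched plexin, by -0.17 (limma adjusted p = 0.581). The plexins thus split, with Plxnd1 lower, Plxnc1 higher and the other 7 not called.

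**Figure D2:**
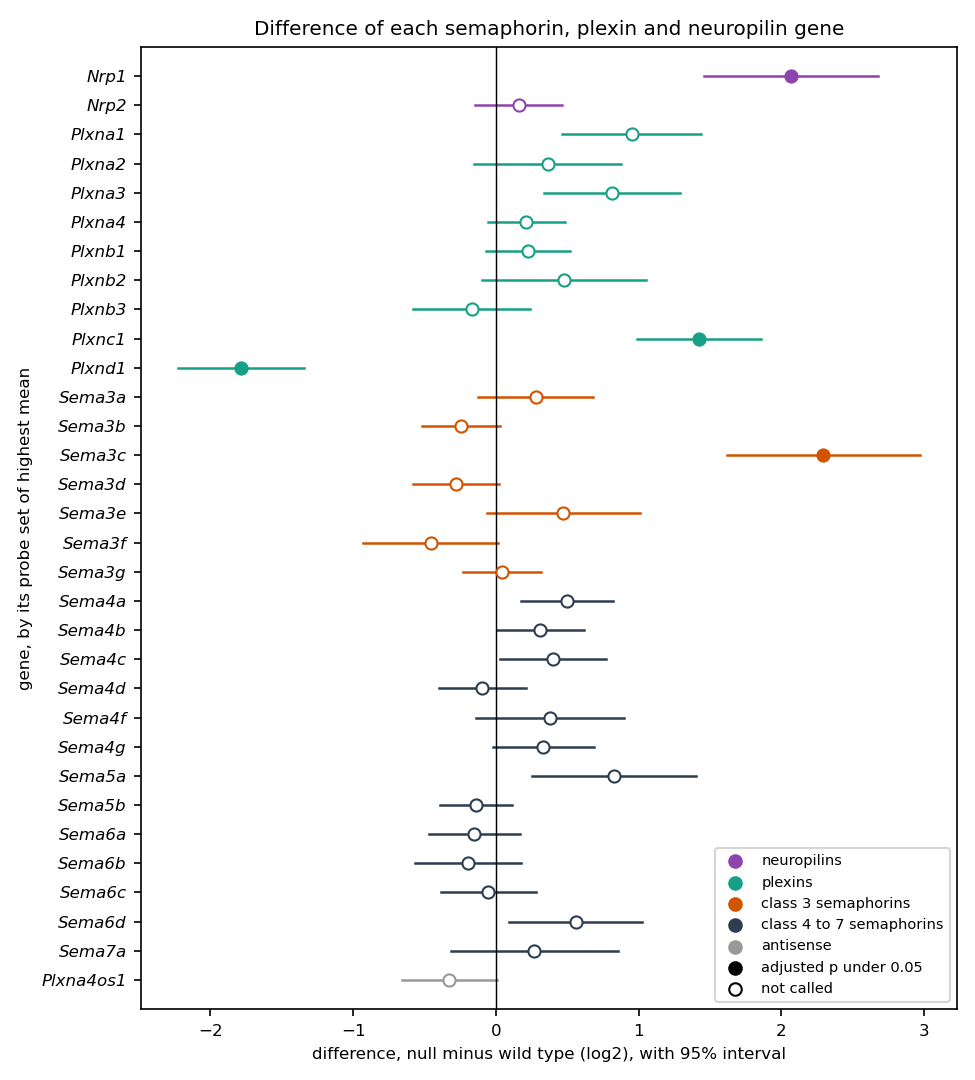
Difference between null (n = 4) and wild type (n = 3) striatum for each of the 32 genes, by the probe set of highest mean, on the log2 scale with its 95% interval. Filled points passed an adjusted p of 0.05 and colours give the role. Nrp1, Plxnc1 and Sema3c lie to the right at 2.07, 1.42 and 2.29 and Plxnd1 to the left at -1.79, while the open points lie between -0.46 and 0.95.

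Among the secreted ligands, Sema3c alone passed. Sema3c is a class 3 semaphorin that signals through neuropilins with A plexins or Plxnd1 and can attract as well as repel. On 1429348_at wild type read 6.05, 6.70 and 6.20, the heterozygote 6.16 and null 8.44, 8.91, 9.25 and 7.84. The heterozygote was at the wild type level and every null array was above every wild type array. The mean rose from 6.32 ± 0.34 (SD, n = 3) to 8.61 ± 0.61 (SD, n = 4), a difference of 2.29 (95% interval 1.62 to 2.97, limma adjusted p = 0.0067). The adjusted p was 0.0646 with array spread as a covariate and 0.0573 without wild type 1 and null 2, and 0.0428 at most with 1 array left out. Its other probe set, 1420696_at, read 5.57, 5.48 and 5.79 in wild type and 5.86, 5.69, 5.72 and 6.02 in null striatum, a difference of 0.21 with a 95% interval of -0.09 to 0.52, which leaves out the size seen on the first.

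The other class 3 genes gave differences on the log2 scale between -0.46 and 0.47. Sema3a, the ligand of Nrp1, differed by 0.28 on its brightest probe set (95% interval -0.13 to 0.68, limma adjusted p = 0.387), with wild type at 8.59, 8.33 and 8.54 and null at 8.50, 8.56, 9.23 and 8.76. Sema3f, the ligand of Nrp2, read 10.73, 11.33 and 11.26 in wild type and 10.88, 10.64, 10.17 and 10.90 in null striatum, a difference of -0.46 (95% interval -0.93 to 0.02, limma adjusted p = 0.265). Wild type 1 lay within the null range on it, so the groups overlapped. Sema3b differed by -0.24 and Sema3g by 0.04.

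Sema3e, the ligand of Plxnd1, had 4 probe sets that did not point one way. The brightest, 1442226_at, differed by 0.47 (limma adjusted p = 0.298). On 1427673_a_at wild type read 6.72, 6.85 and 6.84, the heterozygote 6.53 and null 6.50, 6.19, 6.47 and 6.45, all below wild type, a difference of -0.40 (95% interval -0.68 to -0.12, limma adjusted p = 0.137). The remaining 2 differed by -0.21 and -0.20 at levels under 5. None of the 4 passed. Sema3d, a ligand for Nrp1, differed by -0.28 on 1453148_at. On 1429459_at its heterozygote value of 6.47 stood above all other arrays (4.02 to 5.45), by 1.02, the farthest that the heterozygote lay outside the other 7 on any member.

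None of the semaphorins of classes 4 to 7, most of them membrane-bound, passed. Sema4a, a semaphorin of immune and retinal cells, had null arrays above wild type arrays on both probe sets, with differences of 0.50 (95% interval 0.18 to 0.82) and 0.69 (95% interval 0.24 to 1.14), neither of which passed (limma adjusted p = 0.115 and 0.114). On the brighter, wild type read 7.60, 7.57 and 7.61, the heterozygote 8.25 and null 7.88, 8.20, 8.37 and 7.92. Sema4b, Sema4c, Sema4f and Sema4g differed by 0.31, 0.40, 0.38 and 0.33, and Sema4d, the ligand of Plxnb1, by -0.09. Their adjusted p values ran from 0.228 to 0.684.

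Sema5a, which carries thrombospondin repeats, had the largest difference of these classes, 0.83 on 1437422_at (95% interval 0.25 to 1.40, limma adjusted p = 0.137). Wild type 1, at 6.92, lay within the null range of 6.88 to 7.59, and the other wild type arrays read 5.95 and 5.99. Without wild type 1 it was called, with a limma adjusted p of 0.0229. Sema5b differed by -0.14 on its brighter probe set and by -0.37 on the other, where all null arrays were below wild type (limma adjusted p = 0.195). Sema6d differed by 0.56 (95% interval 0.09 to 1.02, limma adjusted p = 0.198), and Sema6a, Sema6b and Sema6c, ligands of A plexins, by -0.15, -0.20 and -0.05 on their brightest probe sets. A dimmer Sema6a probe set, 1436458_at, had the opposite sign, with 0.56 (95% interval 0.08 to 1.05, limma adjusted p = 0.205).

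Sema7a, the membrane-anchored ligand of Plxnc1, read 9.63, 8.41 and 9.06 in wild type, 9.39 in the heterozygote and 9.36, 9.32, 9.59 and 8.94 in null striatum. The groups overlapped and the difference was 0.27 (95% interval -0.32 to 0.85, limma adjusted p = 0.547). Plxna4os1 differed by -0.33 (limma adjusted p = 0.264).

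Probe sets of 1 gene often differed in sign. Of 25 genes with several probe sets, 12 had at least 1 of each sign, and 32 of the 79 probe sets had a wild type mean below the median of all values. The median difference over the 79 was 0.17, and -0.08 over all probe sets. By role the median over probe sets was 0.43 for neuropilins, 0.27 for plexins, 0.00 for class 3 and 0.03 for classes 4 to 7. With 1 probe set per gene it was 1.11, 0.36, 0.04 and 0.31 in that order, and -0.08 over all genes. The neuropilin value rests on 2 genes, Nrp1 at 2.07 and Nrp2, which did not pass, at 0.16. All null arrays stood above all wild type arrays on 15 of the 79 and below on 5, where all probe sets gave 7.7% and 8.85%.

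**Figure D3:**
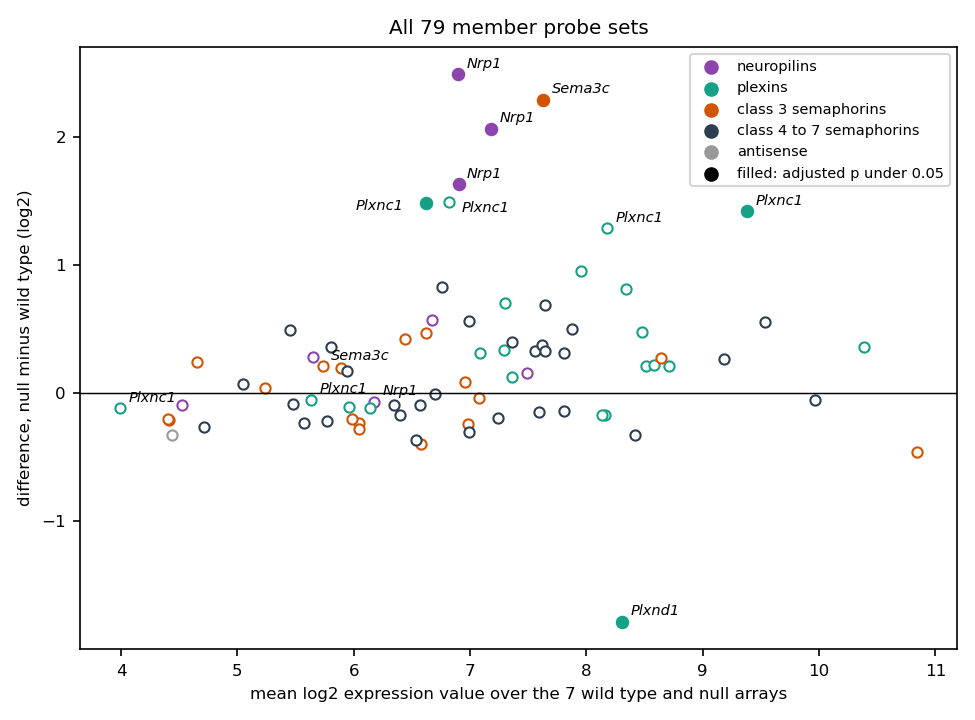
Each of the 79 probe sets of the family by its mean log2 value over the 7 wild type and null arrays (horizontal) and its difference, null minus wild type (vertical, log2). Filled points passed an adjusted p of 0.05, and all probe sets of Nrp1, Plxnc1 and Sema3c are named. Of Nrp1, Plxnc1 and Sema3c, 1, 4 and 1 probe sets did not pass, of which 4 lie near 0 at a mean level under 7. Some that passed, such as Nrp1 1448943_at, lie under that level too.

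The null mice did not rise by equal amounts. On the 6 probe sets that rose, all of Nrp1, Plxnc1 or Sema3c, null 4 was the lowest null array in 6, while null 3 was the highest in 4 and null 2 in 2. Among members not called, null 4 was also lowest on some, such as Plxna1 1428623_at and Plxna3 1420996_at. It was highest on others, such as Plxnb1 1435255_at. The order over all probe sets was not counted. All 4 probe sets of Bcl11b were lower in null striatum, by 2.16-fold to 3.16-fold (limma adjusted p of 0.0152 at most). On the brightest, null 4 read 11.03 and the other null arrays 11.10 to 11.47. Any link of the Bcl11b level to the order of the null arrays was not tested. Null 4 also had the smallest spread of log2 values among null arrays (SD 1.90, the others 1.96 to 2.05, and wild type 1.84 to 1.97). With that SD as a covariate, a fit made with earlier results known, the differences were 2.14, 1.43 and 1.61 for Nrp1, 1.11 and 1.02 for Plxnc1, 1.94 for Sema3c and -1.99 for Plxnd1. Of these, Sema3c and the dimmer Plxnc1 probe set no longer passed, as given with each gene.

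Of the other cell types, microglial markers had mean levels that did not overlap between the groups, though no single gene passed. Of 10 such genes, 8 had a positive difference and 2 a negative one, Trem2 (-0.08) and P2ry12 (-0.15). The mean log2 level of 10 microglial genes was 6.91 to 7.002 in wild type and 7.10 to 7.47 in null arrays, with 0 of 10 called and a median difference of 0.42. Among null arrays that mean was highest in null 4 and lowest in null 3. The part of microglia in the rises was not tested. The mean levels overlapped between genotypes for markers of astrocytes and radial glia (8.07 to 8.46 in wild type, 8.36 to 8.74 in null, 1 of 10 higher), striatal interneurons (1 of 11 higher), the oligodendrocyte lineage (0 of 9 called), choroid plexus (0 of 8) and meninges (0 of 9). Cortical projection neuron markers did not overlap, at 5.51 to 5.58 in wild type and 5.32 to 5.47 in null arrays, with 0 of 11 called.

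The heterozygote did not follow 1 pattern on the 7 called probe sets. Placed between the wild type mean (0) and the null mean (1), it stood at -0.07 on Sema3c, at 0.17, 0.32 and 0.56 on Nrp1, at 0.26 on Plxnd1 and at 0.60 and 0.87 on Plxnc1. This is 1 mouse, and its array had the widest spread of all (SD 2.06), with values above the other 7 arrays on 11.3% of all probe sets and below them on 20.1%. On the 79 members it was above on 11 and below on 15.

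Some genes of the semaphorin pathway outside the family were called, all of them higher. Of 17 receptor partners measured, 2 rose (11.8%), 0 fell and 15 did not pass, against 2.38% higher and 0.676% lower among all genes, and the median difference was 0.03 against -0.08. They were Chl1, a cell adhesion molecule of the L1 family that joins Nrp1 in Sema3a signalling, and Cntn2, a contactin of growing axons. Chl1 read 10.33, 10.05 and 10.26 in wild type, 11.20 in the heterozygote and 11.17, 11.49, 11.50 and 10.90 in null striatum, 2.07-fold higher (limma adjusted p = 0.0154). Cntn2 was 1.72-fold higher (limma adjusted p = 0.0487). Without wild type 2, wild type 3 or null 2 neither was called, and 1 was without wild type 1 or null 1.

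Of 37 intracellular components measured, 2 rose (5.41%), 0 fell and 35 did not pass, against the same 2.38% and 0.676% of all genes, and the median difference was 0.33 against -0.08. Pak3, a kinase activated by the GTPases Rac and Cdc42, read 8.85, 8.56 and 8.86 in wild type, 10.42 in the heterozygote and 10.75, 10.97, 11.44 and 10.66 in null striatum. The heterozygote was near the null arrays and the groups did not overlap, with a 4.58-fold rise (limma adjusted p = 0.0011). Dpysl5, a member of the collapsin response mediator proteins that relay class 3 signals to the cytoskeleton, was 1.55-fold higher (limma adjusted p = 0.0352). With 1 array left out, the count was 6 without wild type 1, 5 without null 4 and 1 without any other array. With the heterozygote among the controls no gene of either list was called.

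**Figure D4:**
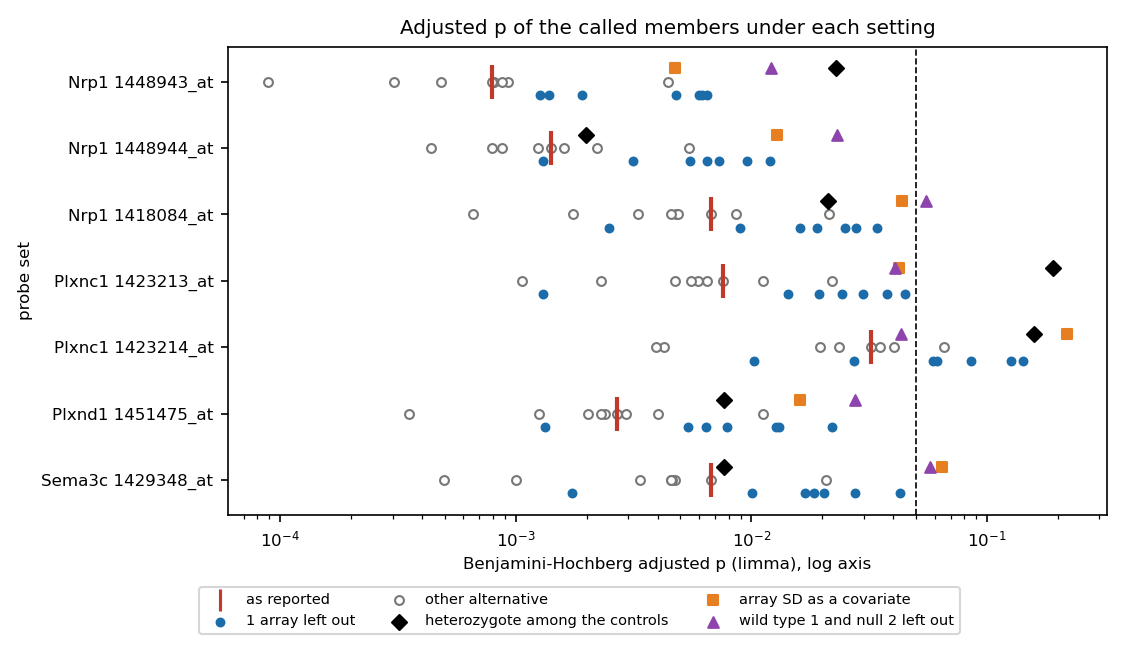
Adjusted p (limma, Benjamini-Hochberg, log axis) of the 7 called probe sets as reported and under each alternative that gives one, with the threshold of 0.05 dashed. Both Nrp1 probe sets at the top and Plxnd1 stay left of the line throughout, and Plxnc1 1423214_at crosses it in 8 alternatives.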

How the data were processed

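Each deposited column holds 1 array's log2 values, 1 for each probe set. The authors normalized them with the RMA function of Bioconductor, per the submitters' design text and processing notes, and the log2 scale was read from the values. The sources used here give neither its version nor the arrays normalized together. RMA matches the arrays' probe intensities by quantile normalization before summarising probe sets, yet the SD of log2 values ran from 1.84 to 2.06 between arrays. Precision is limited by the number of arrays.

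The values were used as deposited, on 45037 probe sets, with Affymetrix control probe sets left out. Null and wild type arrays were compared with limma 3.58.1 in R 4.3.3 (lmFit, eBayes, two-sided, no covariate), with Benjamini-Hochberg adjustment over all probe sets and a threshold of 0.05. The fit was tested on simulated data. Intervals are 95% intervals of the moderated statistic. The heterozygote was described, not tested. Symbols come from the platform annotation, and 34945 probe sets carry 1 symbol. The probe set with the highest mean over the 7 arrays stood for each gene.

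Every called member is given by array, other genes by their representing probe set. From the pathway lists the called genes are named. Of 32 members none was left out by a filter. The members, lists and tests were chosen with earlier results of these data known. The alternatives were array weights, a robust prior with a trend on intensity, the SAM d score of the authors' design text (cut at 2), a filter on dim probe sets, 1 probe set per gene, median centring, quantile normalization, the heterozygote among the controls or as its own group, the replicate number as a block, array SD or Xist as a covariate, each array left out, and wild type 1 and null 2 left out together. Sex is not labelled, and Xist (log2) was above 9 in wild type 1, wild type 2 and null 3 and below 7 in the others. Promoter windows are from RefSeq. Figures used matplotlib 3.10.9.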

Additional observations from a re-analysis of the deposited data

Results flagged for a closer look

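Sema4g 1449202_at was flagged because 1 null array stood far from the other 3. Null 3 read 8.20 against 7.62 to 7.68, a gap of 0.898 of the range of the group and above Dixon's 95% critical value for 4 samples. It was the only flag among 79 probe sets tested in the null group, 1.27%, where chance flags about 1 in 20. Groups of 3 or fewer arrays were not tested.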

How the results depend on the processing

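The 7 called probe sets kept their direction under all alternatives run, in 137 values of which 12 lost the call, each given with its gene. Under the intensity trend, SAM d, the dim filter, 1 probe set per gene and the heterozygote as its own group, the difference cannot change. With the heterozygote as its own group the adjusted p was also that of the main fit. The count of 1 lower probe set was the same throughout. The count of 6 higher became 10 with array weights, 10 with Xist as a covariate and 11 with the replicate block, whose fit leaves out null 4, and ran from 5 to 10 with 1 array left out. It was 4 with the heterozygote among the controls, with array SD as a covariate or without wild type 1 and null 2. Over all probe sets the count higher, 840 as reported, became 2686 with array weights, 1562 with Xist, 1696 with the replicate block, 110 with the heterozygote among the controls, 189 with array SD and 412 without wild type 1 and null 2. Receptor partners higher, 2 as reported, were 0 with the heterozygote among the controls, with array SD as a covariate or without wild type 1 and null 2, and 0 to 2 with 1 array left out. Intracellular components higher, also 2, were 0, 1 and 1 in that order, and 1 to 6. The sample titles number the mice within each group and name no pairing. Deviations of same-numbered arrays correlated at -0.25, -0.31 and -0.17, but so few arrays cannot decide whether the mice are paired.

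Signs were followed in the 7 called probe sets and in 46 of the 72 not called. Sign changes touched only members not called in either setting, 30 of the 890 values of those 46. With array SD as a covariate they were Nrp1 1457198_at 0.34, Nrp2 1447343_at 0.037, Plxna2 -0.031, Plxnb3 0.15, Sema3d 1429459_at -0.20, Sema4f -0.069, Sema6a 0.028, Sema6c 0.19 and Sema7a -0.22. With the heterozygote among the controls they were Nrp1 1457198_at 0.15, Nrp2 1447343_at 0.0012, Plxnc1 1443434_s_at 0.031, Sema3d 1429459_at -0.25 and Sema6c 0.017. Plxnc1 1443434_s_at was 0.048 with array weights, 0.010 with arrays centred, 0.030 with quantile normalization and 0.048 with the replicate block. Sema3g was -0.018 with array weights, Sema6c 0.0071 with arrays centred and Nrp2 1447343_at 6.5e-04 with quantile normalization. With 1 array left out the ranges were -0.32 to 0.20 for Nrp1 1457198_at, -0.23 to 0.021 for Nrp2 1447343_at, -0.16 to 0.048 for Plxnc1 1443434_s_at, -0.014 to 0.094 for Sema3g, -0.15 to 0.049 for Sema6c and -0.043 to 0.57 for Sema7a. The cause was not tested.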
